A study of Mus musculus with 194 samples.

Results

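Cdkn1a, Trp53 and 8 further genes of the p53 pathway (Mdm2, Ccng1, Phlda3, Zmat3, Trp53inp1, Btg2, Sesn2 and Gadd45a) were followed in single mouse lymphocytes of known kinship. They are 10 of the 23420 gene names in the deposited expression table. The set was chosen by a measured value of these same cells, the likeness of Cdkn1a among related cells of both cell types, and the other genes were added as its upstream factor and fellow p53 targets. The likeness of Cdkn1a within lineages is therefore given as a description, and the tests below concern how the other genes varied, whether they moved with Cdkn1a, and how all 10 related to the time since division and to cell type.

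The transcription factor p53, encoded by Trp53, is held at a low protein level by the ubiquitin ligase Mdm2 and is stabilised by DNA damage and other stress, so that its activity need not follow the level of its mRNA. Active p53 switches on a set of target genes, among them Mdm2 itself, which closes a feedback loop. The best known target is Cdkn1a, whose product p21 inhibits cyclin-dependent kinases and binds the replication factor PCNA. In proliferating lymphocytes p21 restrains division, and it also responds to signals other than p53.

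Single founder cells were grown in a microfluidic device that traps each cell and its descendants, which were released one by one for Smart-Seq2 libraries, so that sisters (cells of the same last division) and cousins were known. The CD8+ T-cells were primary cytotoxic T-cells purified from the spleens of C57BL/6J mice. These T-cells were cultured with IL-2 and activated for 30 h with antibodies against CD3 and CD28. The L1210 cells were a lymphocytic leukemia line of a DBA subline (212) and received no activation. No genotype was altered and no drug was given in either group, and the labels name neither the mouse nor the culture of a cell.

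After 4 doublets and 5 libraries with fewer than 1000 genes above 0 TPM (a level scaled to transcript length and library total) were left out, 97 CD8+ T-cells remained, and 81 of 88 L1210 libraries remained after leaving out 2 doublets and 5 below this minimum. The CD8+ T-cells formed 34 lineages, 27 of them with at least 2 cells, and the L1210 cells 26 lineages, 24 of them with at least 2. The TPM keep no read depth, so the number of genes above 0 TPM stands in for it. It ran from 2639 to 10905 (median 6862) in CD8+ T-cells and from 1610 to 10454 (median 8402) in L1210 cells. All 8 T-cell markers were found in CD8+ T-cells with a summed level of 683 to 6185 TPM, against 0 to 130 TPM in L1210 cells, where Cd3e and Cd3g were listed at 0. The 8 B-lineage markers summed to 538 to 5608 TPM in L1210 cells and 0 to 283 TPM in CD8+ T-cells, where Vpreb1, Vpreb3, Igll1, Ebf1 and Pax5 were among those listed at 0. The 5 myeloid markers summed to at most 3.76 TPM in CD8+ T-cells and 180 TPM in L1210 cells, and the 4 markers of CD4 and B-cells of the spleen to at most 3.72 TPM in CD8+ T-cells and to between 4.51 and 564 TPM in L1210 cells.

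In the GENCODE annotation of GRCm38 the members lie at chr17:29090976-29100727 (Cdkn1a), chr11:69580359-69591873 (Trp53), chr10:117688875-117710758 (Mdm2), chr11:40748552-40755311 (Ccng1), chr1:135766119-135769136 (Phlda3), chr3:32334792-32366014 (Zmat3), chr4:11156431-11174379 (Trp53inp1), chr1:134075170-134079120 (Btg2), chr4:132492032-132510501 (Sesn2) and chr6:67035096-67037457 (Gadd45a). Cdkn1a and Gadd45a overlap a gene on the opposite strand, Sesn2 overlaps a gene on its own strand, and a processed pseudogene of Trp53 lies at chr17:54419680-54420841. Smart-Seq2 libraries do not mark strand, so reads from the shared stretches cannot be told apart.

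p53 binds pairs of a half-site decamer that reads the same on both strands. RefSeq promoter windows (GRCm38.p6, 250 bases before to 50 after a start) were at hand for 8 of the 10 members, and Zmat3 and Trp53inp1 had no entry. A perfect decamer occurred in 2745 of all 32851 windows (8.36%), and a pair of adjacent decamers with at most 1 mismatch over its 20 bases in 29 windows (0.0883%). Of the members' windows, those of Cdkn1a and Ccng1 held such a pair, each with 1 mismatch. They are shown because these are the genes whose levels went together most closely in the L1210 lineages below. The 250 bases before the start are printed 5′ to 3′ on the strand of the gene, at chr17:29090729-29090978 (plus strand) and chr11:40755287-40755536 (minus strand), with decamers and the pair in capitals.
Cdkn1a: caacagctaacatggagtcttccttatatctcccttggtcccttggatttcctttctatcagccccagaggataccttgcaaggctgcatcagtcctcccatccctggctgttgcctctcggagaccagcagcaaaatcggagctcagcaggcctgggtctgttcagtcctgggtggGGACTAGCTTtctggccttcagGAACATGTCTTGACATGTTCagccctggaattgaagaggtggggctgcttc
Ccng1: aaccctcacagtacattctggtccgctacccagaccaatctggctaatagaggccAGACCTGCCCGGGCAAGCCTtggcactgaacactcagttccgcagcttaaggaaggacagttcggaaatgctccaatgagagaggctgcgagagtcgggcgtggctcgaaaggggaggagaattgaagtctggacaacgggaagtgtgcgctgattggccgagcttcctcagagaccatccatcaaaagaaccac
In Cdkn1a the pair began 51 bases before the upstream start (chr17:29090928-29090947), with a further single decamer upstream of it. In Ccng1 it began 195 bases before the start (chr11:40755462-40755481). A second window of Cdkn1a, at a downstream start (the 250 bases before it at chr17:29093519-29093768), held no decamer. Mdm2, Trp53 and Gadd45a each had a single decamer, shown in capitals with 10 bases on either side.
Mdm2: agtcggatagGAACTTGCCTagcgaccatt
Trp53: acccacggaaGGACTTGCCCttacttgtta
Gadd45a: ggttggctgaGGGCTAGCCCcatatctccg
These began 186, 75 and 40 bases before the start. Btg2, Phlda3 and Sesn2 had none in their windows. A match shows only that the letters are present, and sites elsewhere, such as in an intron, were not searched.

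The members differed widely in level. Trp53 had the highest median TPM of the members in both cell types, 248 over 97 CD8+ T-cells (2.92 to 720) and 241 over 81 L1210 cells (0 to 530). It was above 0 in every CD8+ T-cell and in 78 L1210 cells, and the 3 L1210 cells without it had only 1610 to 3190 genes above 0 TPM. Ccng1, which encodes cyclin G1, followed with medians of 51 TPM (0 to 271) and 66.1 TPM (0 to 323). Mdm2 had medians of 11.9 TPM (0 to 134) and 29.4 TPM (0 to 100.4).

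Cdkn1a, which encodes p21, was absent from many cells and high in others. Of 97 CD8+ T-cells, 55 had it, at up to 458 TPM, and the median was 3.44 TPM over all cells and 45.8 TPM over those that had it. In L1210 cells it was above 0 in 33 of 81, with a median of 0, a median of 28.97 TPM where present and a maximum of 180 TPM. The ranges of both cell types overlapped.

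The remaining targets were detected in part of the cells, as the plot of the members by cell shows. Trp53inp1, a stress protein that promotes p53 activity, was above 0 in 73 CD8+ T-cells (median 7.08 TPM, maximum 136) and 40 L1210 cells (median 0, maximum 47.8). Btg2, an antiproliferative gene that is also induced by mitogens, was above 0 in 66 CD8+ T-cells (median 3.30 TPM, maximum 116) and 40 L1210 cells (median 0, maximum 98.5). Zmat3, an RNA-binding zinc finger protein, was above 0 in 60 CD8+ T-cells (median 0.840 TPM, maximum 38.4) and 71 L1210 cells (median 9.35 TPM, maximum 54.4). Sesn2, a sestrin that restrains mTOR signalling, was above 0 in 34 CD8+ T-cells (median 0, maximum 96.7 TPM) and 64 L1210 cells (median 17.9 TPM, maximum 120). Gadd45a, a growth arrest gene, was found in 11 CD8+ T-cells and 15 L1210 cells and never exceeded 52.1 TPM. Phlda3, an inhibitor of Akt signalling, was above 0 in 21 CD8+ T-cells with a maximum of 112 TPM. It was listed at 0 in all 81 L1210 cells. If the cells were independent, up to 3.70% could have a value above 0. They came from 26 lineages and are not independent, so this limit is too tight. The zeros set no limit on the share that express Phlda3.

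**Figure D1:**
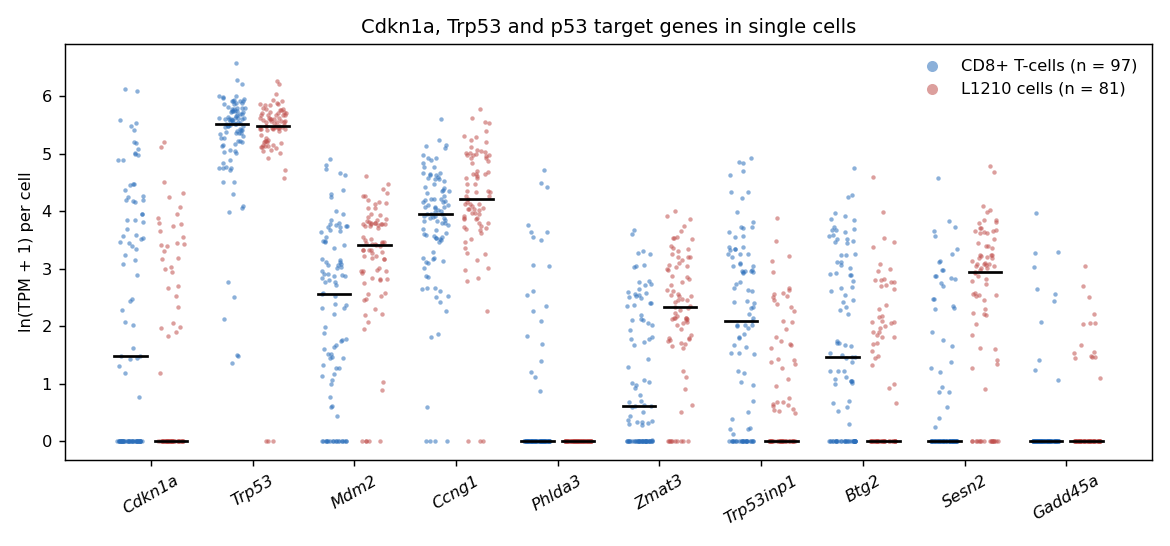
ln(TPM + 1) of the 10 members in each of 97 CD8+ T-cells (blue) and 81 L1210 cells (red), with the median as a black line. Trp53 and Ccng1 are present in nearly every cell, Cdkn1a is at 0 in 42 CD8+ T-cells and 48 L1210 cells, and Phlda3 is at 0 in every L1210 cell.

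Related cells were alike in Cdkn1a, which is the value that chose it. Of the 27 CD8+ T-cell lineages with at least 2 cells, Cdkn1a was above 0 in every cell of 11, in no cell of 7 and in part of the cells of 9. The highest lineage had 458 and 241 TPM in its 2 cells, the next 439 and 225 TPM. A lineage of 4 cells had 145, 133, 84.8 and 27.3 TPM, and in 5 lineages of 4 cells all were at 0. Of the 24 L1210 lineages, 5 had Cdkn1a in every cell, 9 in none and 10 in part. The 4 cells of 1 lineage held 74.6, 51.6, 47.5 and 42.7 TPM, those of another 180, 69.01, 43.7 and 0 TPM.

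The same held for pairs of cells, where 1 cell with Cdkn1a and 1 without made a discordant pair. Sisters were discordant in 9 of 43 pairs (20.9%) of CD8+ T-cells and cousins in 18 of 72 (25%), against 50.3% of 4541 unrelated pairs. For L1210 cells the counts were 8 of 38 for sisters (21.1%), 17 of 62 for cousins (27.4%) and 49.6% of 3140 for unrelated pairs. The intraclass correlation, the part of the variance of ln(TPM + 1) that lies between lineages, was 0.664 for Cdkn1a in CD8+ T-cells (90 cells) and 0.512 in L1210 cells (79 cells).

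**Figure D2:**
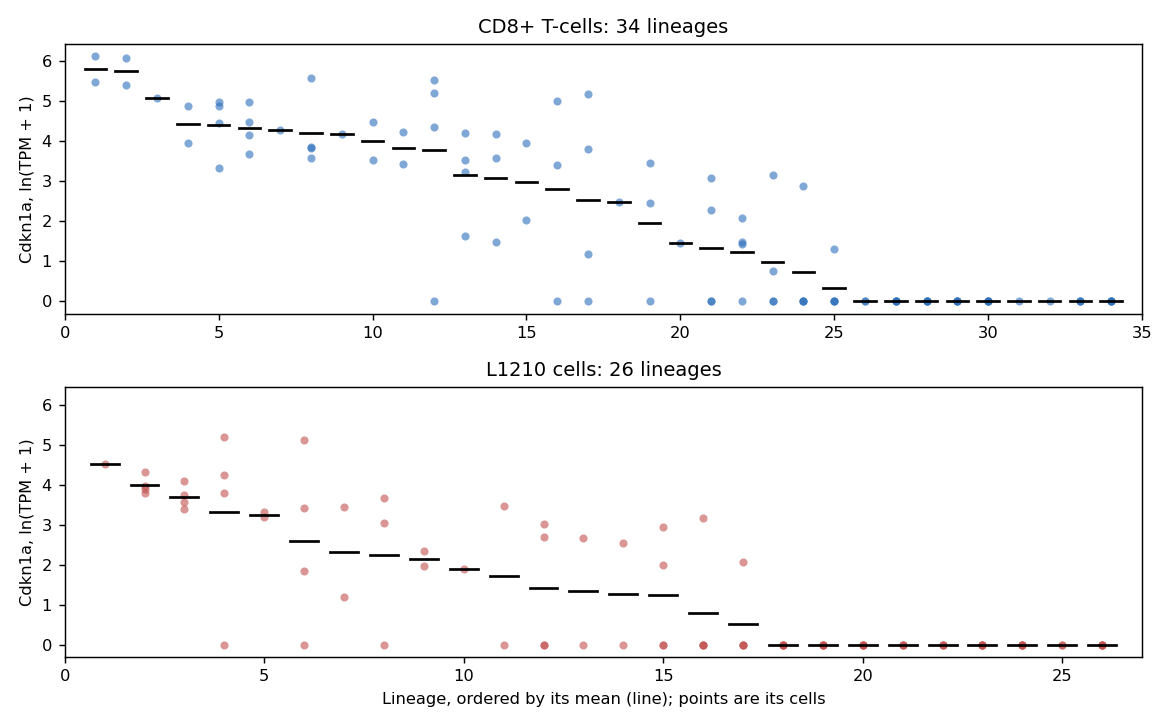
Cdkn1a as ln(TPM + 1) in each cell (points) of the 34 CD8+ T-cell and 26 L1210 lineages, ordered by lineage mean (black lines). In 9 lineages of each cell type, single-cell lineages included, no cell had Cdkn1a. In 9 CD8+ T-cell and 10 L1210 lineages only part of the cells had it.

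Several other targets also varied by lineage, tested with limma's moderated F-test on cells with the lineage as a factor and adjusted over all genes. Cells of a lineage also share their mouse or culture and their device run, which cannot be told apart from lineage here or in the pairs above. Leaving out Cdkn1a, whose call the choice of the set fixed, 5 of 9 members passed an adjusted p of 0.05 in CD8+ T-cells, where 12.9% of 9997 genes did, and 2 of 8 in L1210 cells, where 13.4% of 10536 did. In CD8+ T-cells the intraclass correlation was 0.437 for Sesn2 (adjusted p = 0.000522), 0.387 for Trp53inp1 (adjusted p = 0.00402), 0.350 for Zmat3 (adjusted p = 0.0136), 0.309 for Phlda3 (adjusted p = 0.00959) and 0.300 for Ccng1 (adjusted p = 0.0403). The call of Ccng1 was lost with a pseudocount of 0.1 (adjusted p = 0.0554), with the number of detected genes as a covariate (0.0791) and in a Mann-Whitney U-test on pairs (0.304), and that of Phlda3 in the last test (0.327). In L1210 cells Zmat3 (0.507, adjusted p = 0.00112) and Trp53inp1 (0.372, adjusted p = 0.00744) passed. Zmat3 and Trp53inp1 thus passed in both cell types.

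The presence of Zmat3 and Trp53inp1 also varied among related cells. Zmat3 was discordant in 37.2% of sister pairs and 47.9% of unrelated pairs of CD8+ T-cells, and in 18.4% and 22.1% of those of L1210 cells. Trp53inp1 was discordant in 27.9% of sister pairs and 37.9% of unrelated pairs of CD8+ T-cells, and in 28.9% and 51.2% of those of L1210 cells. Trp53 and Mdm2 did not pass. Trp53 had an intraclass correlation of 0.0542 in CD8+ T-cells (adjusted p = 0.412) and 0.0856 in L1210 cells (adjusted p = 0.257), and Mdm2 reached 0.264 in CD8+ T-cells (adjusted p = 0.0555). Mdm2 passed there with a pseudocount of 10 (adjusted p = 0.00306), with the 50% filter (0.0445), with all genes tested (0.0482) and in the Mann-Whitney U-test on pairs (0.0457). Btg2 gave values below 0 in both cell types, with sisters discordant in 53.5% and 47.4% of pairs, near the 43.8% and 50.8% of unrelated pairs. By lineage, 5 of 25 other p53 targets tested passed in CD8+ T-cells, led by Rps27l (0.451, adjusted p = 0.00018), Lif (0.411, adjusted p = 0.00238), Plk3 (0.318, adjusted p = 0.0120) and Pml (0.309, adjusted p = 0.0251), and 3 of 21 in L1210 cells, Bax (0.487, adjusted p = 0.000658), Xpc (0.315, adjusted p = 0.0290) and Rps27l (0.265, adjusted p = 0.0317). Mitotic genes passed in 8 of 10 in both cell types, replication genes in 5 and 6 of 10, the partners of Cdkn1a in 3 of 10 and 4 of 11, other CDK inhibitors in 1 of 3 and 0 of 4, and p53 regulators in 1 of 9 and 0 of 8.

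Whether the other targets moved with Cdkn1a was tested over lineage means, so that each lineage counted once, by a limma fit of each gene on Cdkn1a. No member passed the adjusted threshold in either cell type. By r and rho over lineages Ccng1 had the highest coefficients of the members in both, while in the CD8+ T-cell fit Phlda3 had the lowest adjusted p. By limma 0 of 9 members passed in CD8+ T-cells, where 0.250% of 9996 genes rose and 0.0100% fell with Cdkn1a, and 0 of 8 in L1210 cells, where 0% of 10535 genes rose and 0% fell. At an unadjusted p under 0.05 there were 3 members in CD8+ T-cells (Ccng1, Phlda3 and Zmat3) and 3 in L1210 cells (Ccng1, Trp53inp1 and Zmat3), and limma on ranks passed 0 in both.

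Ccng1 and Cdkn1a can be read side by side in single lineages. In the L1210 lineage of 4 cells with Cdkn1a in every cell at 42.7 to 74.6 TPM, Ccng1 averaged 168 TPM, and over all 26 lineages its mean ln(TPM + 1) ran from 2.44 to 5.37 with a median of 4.40. Of the 33 L1210 cells with Cdkn1a all 33 had Ccng1, and of the 48 without 45 had it, so that the relation lies in its level rather than its presence. Over the 26 lineages r was 0.677 (permutation p = 0.00017) and Spearman's rho 0.733 (permutation p = 4e-05), and without the 2 lineages farthest from the median Cdkn1a r was 0.613. The slope was 0.358 ± 0.0821 (SE, n = 26 lineages) with an adjusted p of 0.252. By rho Ccng1 ranked 1 of 10535 genes.

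That adjusted p moved when shallow libraries were left out or the number of detected genes was modelled. With the 77 L1210 cells that had at least 4000 genes above 0 TPM the slope of Ccng1 was 0.350 (adjusted p = 0.000286), with the number of detected genes as a covariate it was 0.396 (adjusted p = 0.0118), and without 1 lineage of 2 cells, in 1 of which 2718 genes were above 0 TPM and neither Cdkn1a nor Ccng1 was, it was 0.367 (adjusted p = 0.0264). The slope of Ccng1 did not pass with hours as a covariate (adjusted p = 0.434) or over lineages of at least 2 cells (0.370). Nor did it with a pseudocount of 0.1 (0.367) or 10 (0.173), with the 50% filter (0.323) or without Rn45s (0.257). Of 26 fits that left out 1 lineage, 1 passed, and the highest adjusted p was 0.471. Across L1210 lineages the rho with the number of detected genes was 0.0790 for Ccng1 and −0.176 for Cdkn1a. Within lineages, after subtracting the lineage mean, Cdkn1a and Ccng1 of 79 L1210 cells had a correlation of 0.433, where the median of all genes was 0.122. In each cell both genes were measured in the same library and so share its depth, and no test was made.

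In CD8+ T-cells Ccng1 had r = 0.592 (permutation p = 0.0002) and rho = 0.623 (permutation p = 0.00015) over 34 lineages, and r = 0.548 without the 2 farthest lineages. Its slope was 0.234 ± 0.0634 (SE, n = 34) with an adjusted p of 0.0663, and it ranked 27 of 9996 genes by rho. The adjusted p fell to 0.0444 when only genes found in more than 50% of cells were tested. It was 0.0494 without 1 single-cell lineage at 0 for Cdkn1a. With hours since division as a covariate it was 0.0381, over the 31 lineages with recorded hours, which leave out that lineage too. The part of the covariate and that of the lineages left out were not told apart. Here Ccng1 also followed the number of detected genes across lineages (rho = 0.477), as did Cdkn1a (rho = 0.333). With that number as a covariate its slope was 0.193 (adjusted p = 0.104). With TPM rescaled without Rn45s, a ribosomal RNA entry, it was 0.213 (adjusted p = 0.143). The correlation within lineages was 0.0806 (90 cells), against a median of −0.0326 for all genes.

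Phlda3 was found almost only beside Cdkn1a in CD8+ T-cells. It was above 0 in 19 of the 55 cells with Cdkn1a and in 2 of the 42 without. The 13 lineages that held it all held Cdkn1a, as did 25 of all 34 lineages. Among the other sparse members Sesn2 leaned the same way (26 of the 55 and 8 of the 42), while Gadd45a did not (6 and 5). The share among all genes of like detection was not computed. The cells with Cdkn1a had a median of 7420 genes above 0 TPM and those without 6283, and the part of depth in these counts was not tested. Over the 34 lineages r was 0.523 (permutation p = 0.00076) and rho 0.582 (permutation p = 0.00043), but r was 0.372 without the 2 farthest lineages, 1 of which had the highest Phlda3 mean. The slope was 0.256 ± 0.0686 (SE, n = 34) with an adjusted p of 0.0632. It was 0.289 (adjusted p = 0.0278) with hours as a covariate, over the 31 lineages with recorded hours. Over lineages of at least 2 cells it was 0.333 (adjusted p = 0.0131). Both fits leave out the single-cell lineage with 160 TPM of Cdkn1a and no Phlda3. Leaving out that lineage alone gave 0.287 (adjusted p = 0.0312), and leaving out a lineage of 4 cells with 1 Cdkn1a-bearing cell gave 0.285 (adjusted p = 0.0312). Of 34 fits that left out 1 lineage these 2 passed, and the highest adjusted p was 0.168. Phlda3 did not pass with all genes tested (adjusted p = 0.143), on ranks (0.133) or with at least 4000 detected genes (0.0950). Nor did it with a pseudocount of 10 (0.0917) or without Rn45s (0.0871).

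Zmat3 and Trp53inp1 had positive coefficients with Cdkn1a in L1210 cells, without passing adjustment. Zmat3 had r = 0.528 (permutation p = 0.00555) and rho = 0.515 (permutation p = 0.00753) over 26 lineages, with a slope of 0.350 ± 0.113 (SE, adjusted p = 0.432), and r = 0.409 without the 2 farthest lineages. In CD8+ T-cells it had r = 0.363 (permutation p = 0.0350), rho = 0.399 (permutation p = 0.0211) and a slope of 0.171 ± 0.0772 (SE, n = 34, adjusted p = 0.317). Trp53inp1 had r = 0.577 (permutation p = 0.00195) and rho = 0.554 (permutation p = 0.00414) in L1210 cells, with a slope of 0.387 ± 0.105 (SE, n = 26, adjusted p = 0.335). In CD8+ T-cells its coefficients had the opposite sign, with r = −0.190 (permutation p = 0.281) and rho = −0.129 (permutation p = 0.467). The difference between the slopes of both cell types was −0.506 ± 0.170 for Trp53inp1 (SE, adjusted p = 0.214). By limma 0 of 9 members passed this test of unequal slopes, 2 at an unadjusted p under 0.05 (Phlda3 and Trp53inp1), where 0.141% of 11372 genes passed.

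Trp53 and Mdm2, the genes of the feedback loop, had coefficients near 0. In CD8+ T-cells rho with Cdkn1a was 0.112 for Trp53, whose slope had the other sign (−0.0356 ± 0.0696, SE, n = 34, adjusted p = 0.883), and 0.0438 for Mdm2, and in L1210 cells −0.0248 and −0.0360. Sesn2 had a rho of 0.289 in CD8+ T-cells, against −0.0758 in L1210 cells, Gadd45a −0.139 and 0.0175, and Btg2 −0.335 and 0.215, with permutation p-values of 0.0530 or more for all 5 genes in both cell types. The median rho of the members was 0.112 in CD8+ T-cells, against 0.116 in L1210 cells, beside 0.0810 and −0.121 over all genes tested.

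**Figure D3:**
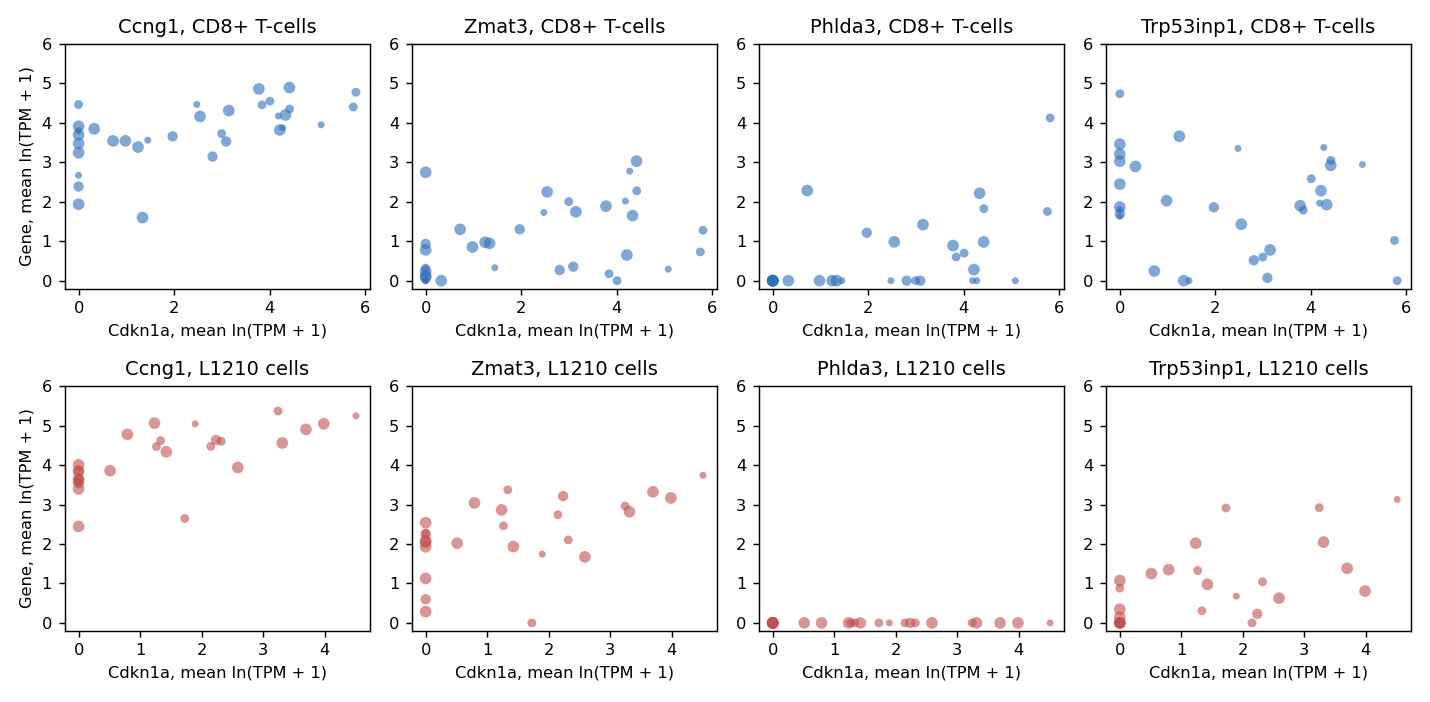
Lineage means of ln(TPM + 1) of Ccng1, Zmat3, Phlda3 and Trp53inp1 (vertical) against Cdkn1a (horizontal), each point a lineage and larger points lineages of more cells, in 34 CD8+ T-cell lineages (top) and 26 L1210 lineages (bottom). Ccng1 has rho 0.623 in the upper and 0.733 in the lower row, and Trp53inp1 has rho −0.129 in the upper and 0.554 in the lower row, with the unequal slopes not passing (adjusted p = 0.214).

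**Figure D4:**
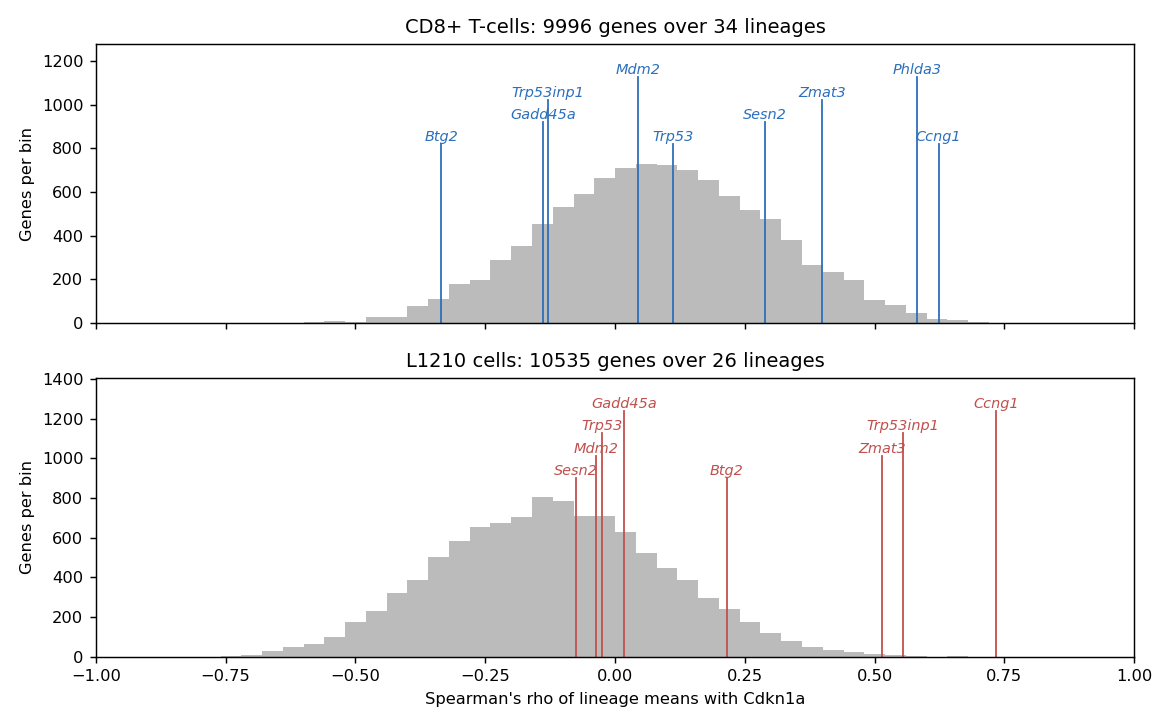
Number of genes per bin of Spearman's rho with Cdkn1a over lineage means, for 9996 genes in CD8+ T-cells, against 10535 in L1210 cells, with the members as coloured lines. Ccng1 lies at the right edge of both distributions, while Trp53 and Mdm2 lie near 0.

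Over all genes, the one most like Cdkn1a in both cell types was a p53 target outside the 10. Ordered by the lower of its 2 rho values, Bax, a pro-apoptotic p53 target, came first of 9159 genes tested in both, with rho = 0.689 in CD8+ T-cells, against 0.671 in L1210 cells. Ccng1 ranked 2 with a lower rho of 0.623, and 9230114K14Rik, Fth1 and Mllt11 followed. Zmat3 ranked 11. In CD8+ T-cells the highest rho values were those of Ebna1bp2 (0.761), BC003965, Timm17a, Cox17 and Dennd5a, and in L1210 cells those of Ccng1, Cd81 (0.717), Bax, Rhod and Esd. Of the list of other p53 targets, 2 of 25 tested passed in CD8+ T-cells, both rising with Cdkn1a. These were Bax (slope 0.262 ± 0.0534, SE, adjusted p = 0.0139) and Rps27l, a ribosomal protein-like p53 target (0.267 ± 0.0511, SE, adjusted p = 0.0108). Both passed in each of 34 fits that left out 1 lineage. Across CD8+ T-cell lineages Bax followed the number of detected genes (rho = 0.313), as did Cdkn1a (rho = 0.333). The part of depth in these 2 calls was not tested. The median slope of the 25 genes was 0.0375 and that of all genes 0.0326. In L1210 cells 0 of 21 passed by limma. Bax had a rho of 0.671 but r = 0.293 there, and Rps27l had a slope of −0.0562 ± 0.0879 (SE, n = 26, adjusted p = 0.930), with a difference between the slopes of both cell types of 0.323 (adjusted p = 0.184).

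With Cdkn1a the lists of cell cycle genes showed no call by limma. Of the 11 genes listed as partners of Cdkn1a (kinases, cyclins and PCNA), 0 of 10 tested in CD8+ T-cells and 0 of 11 in L1210 cells passed, and the same count of 0 was found for p53 regulators (9 and 8 tested), other CDK inhibitors (3 and 4), mitotic genes (10 and 10) and replication genes (10 and 10). In L1210 cells the median rho with Cdkn1a was −0.435 for replication genes and −0.366 for the partners, with 0 of 10 and 2 of 11 above 0, where the median of all genes was −0.121 and 3042 of 10535 were above 0. In CD8+ T-cells these medians were −0.0748 and 0.0429. The p53 regulators also had a negative median in L1210 cells, −0.302, with 0 of 8 above 0. For mitotic genes the L1210 median was −0.0150 (4 of 10 above 0) and for other CDK inhibitors 0.0922 (3 of 4).

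The time since the last division, recorded for each trapped cell, was averaged over each lineage. No member had a slope on these hours that passed adjustment. Only straight lines were fitted, so a level that falls and rises again could be missed. By limma 0 of 10 members passed in CD8+ T-cells over 31 lineages with 0.5 to 9.39 h, where 0.0900% of 9997 genes did (4 rose and 5 fell), and 0 of 9 in L1210 cells over 26 lineages with 1.07 to 12.8 h, where 0% of 10536 genes did. At an unadjusted p under 0.05 there was 1 member in each, Trp53 and Btg2. In fits over cells with the lineage as a random effect 0 members passed in both cell types.

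Cdkn1a had a slope of −0.0615 ± 0.132 per h in CD8+ T-cells (SE, n = 31, adjusted p = 0.881) and 0.0759 ± 0.0658 per h in L1210 cells (SE, n = 26, adjusted p = 0.865). In L1210 cells the 9 lineages without Cdkn1a had mean times from 2.61 to 9.33 h, and 4 of the 13 lineages in that range had some. The 7 lineages before it and the 6 after it all had some, which follows from a range set by the lineages at 0. The later ones held at most 2 cells each, and the shape over time was not tested. In CD8+ T-cells the 7 lineages without Cdkn1a spanned 0.560 to 6.31 h, with 18 of 25 lineages in that range holding some, 1 lineage before it and 5 after.

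Trp53 was lower in CD8+ T-cell lineages farther from division, with r = −0.535 (permutation p = 0.00175) and rho = −0.582 (permutation p = 0.00078), and r = −0.382 without the 2 farthest lineages. Its slope of −0.120 ± 0.0387 per h (SE, n = 31) did not pass adjustment (adjusted p = 0.188). It was −0.0608 per h with cells of at least 4000 detected genes (adjusted p = 0.432), and Trp53 followed the number of detected genes across lineages (rho = 0.559). In L1210 cells its slope was −0.0250 ± 0.0347 per h (SE, adjusted p = 0.911). Btg2 had a slope of 0.0954 ± 0.0337 per h in L1210 cells (SE, n = 26, adjusted p = 0.843), with r = 0.510 (permutation p = 0.00824), rho = 0.449 (permutation p = 0.0229) and r = 0.478 without the 2 farthest lineages, and 0.00262 ± 0.0785 per h in CD8+ T-cells (SE, adjusted p = 0.990). For unequal slopes on time limma passed 0 of 10 members, 0 at an unadjusted p under 0.05, where 0.00879% of 11373 genes passed.

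Among the listed genes, those that passed with time were in CD8+ T-cells, where Cdk1 (0.263 ± 0.0547 per h, SE, adjusted p = 0.0276) and Kpna2 (0.276 ± 0.0602, SE, adjusted p = 0.0431) rose and Ccne2 (−0.362 ± 0.0711, SE, adjusted p = 0.0265) fell. In L1210 cells none of the listed genes passed by limma.

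**Figure D5:**
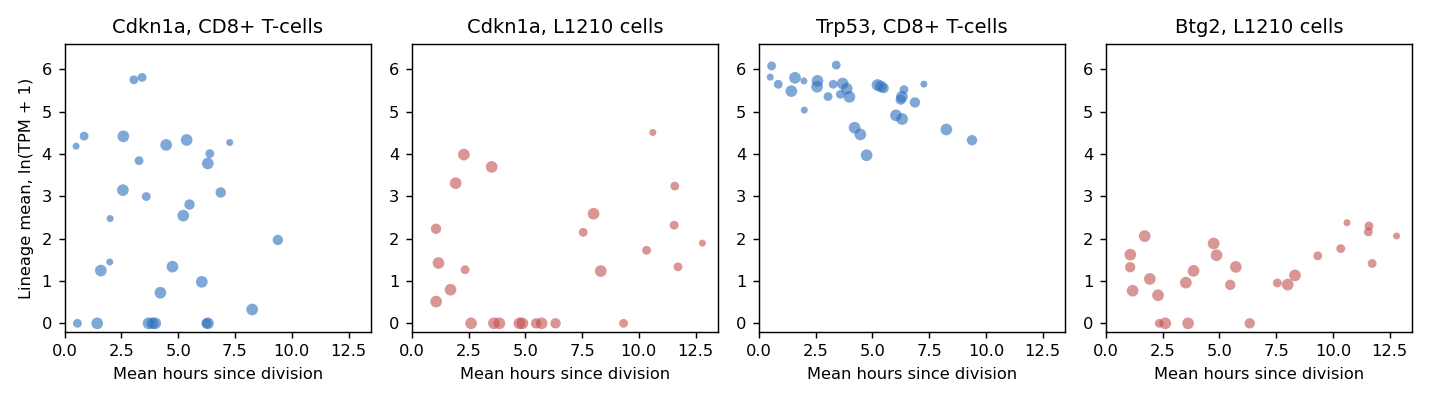
Lineage means of ln(TPM + 1) against mean hours since division for Cdkn1a in CD8+ T-cells and L1210 cells, Trp53 in CD8+ T-cells and Btg2 in L1210 cells, each point a lineage and larger points lineages of more cells. The slope of Cdkn1a passed in neither (adjusted p = 0.881 and 0.865), and the L1210 lineages at 0 lie between 2.61 and 9.33 h.

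Between cell types the members split. Sesn2, Zmat3 and Mdm2 were lower and Trp53inp1 higher in CD8+ T-cells than in L1210 cells, in a limma fit on lineage means (n = 34 and 26). These 4 of 9 members passed, Phlda3 left out as below, where 63.6% of 11373 genes did, 1540 of them higher and 5696 lower in CD8+ T-cells. The median difference over all genes was −0.41 in ln(TPM + 1), and CD8+ T-cells had fewer detected genes. Strain, medium, activation and handling differ with the cell type and cannot be told apart from it.

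Sesn2 had a lineage mean of 0.830 ± 1.05 in CD8+ T-cells against 2.36 ± 0.881 in L1210 cells (SD), a difference of −1.52 ± 0.249 (SE, adjusted p = 2.8e-07). Zmat3 differed by −1.18 ± 0.239 (SE, adjusted p = 2.0e-05), from 1.06 ± 0.913 to 2.24 ± 0.948 (SD). Mdm2 differed by −1.12 ± 0.255 (SE, adjusted p = 0.00013), from 2.06 ± 1.23 to 3.17 ± 0.533 (SD). The lineage ranges of all 3 genes overlapped between the cell types.

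Trp53inp1 was higher in CD8+ T-cells by 0.994 ± 0.279 (SE, adjusted p = 0.0017), with 1.97 ± 1.22 against 0.979 ± 0.959 (SD). Phlda3 entered the fit only through the CD8+ T-cells, so its direction was fixed and its lineage means, 0.567 ± 0.950 (SD) against 0 in every L1210 lineage, are a description. These 4 calls held under every alternative in which the gene was tested, and with the number of detected genes as a covariate Sesn2 was at −0.981, Zmat3 at −0.911 and Mdm2 at −0.782.

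Ccng1 missed the threshold (−0.438 ± 0.200, SE, adjusted p = 0.0502), as did Cdkn1a (0.860 ± 0.423, SE, adjusted p = 0.0692), and each passed under several alternatives, among them the pseudocount of 10 (−0.375 and 0.519, adjusted p = 0.0152 and 0.0422). With the number of detected genes as a covariate Ccng1 was at −0.146 (adjusted p = 0.575) and Cdkn1a at 1.13 (adjusted p = 0.0373). Trp53 differed by −0.0577 ± 0.197 (SE, adjusted p = 0.810), Btg2 by 0.435 ± 0.238 (SE, adjusted p = 0.103) and Gadd45a by −0.0737 ± 0.133 (SE, adjusted p = 0.640). Btg2 passed over cells with the lineage as a random effect (0.512, adjusted p = 0.0477) and over lineages of at least 2 cells (0.483, adjusted p = 0.0398). With the number of detected genes as a covariate the difference of Trp53 was 0.405 (adjusted p = 0.0457). Of 25 other p53 targets tested, 6 were higher in CD8+ T-cells, such as Ddb2 (1.38 ± 0.228, SE, adjusted p = 3.8e-07), and 13 were lower, such as Aen (−1.72 ± 0.251, SE, adjusted p = 1.7e-08), Apaf1 (−1.06 ± 0.197, SE, adjusted p = 4.0e-06) and Plk3 (−1.23 ± 0.272, SE, adjusted p = 8.5e-05). The replication genes were higher in 7 of 10 and lower in 0, the mitotic genes higher in 3 of 10 and lower in 0, the partners of Cdkn1a higher in 4 of 11 and lower in 0, the other CDK inhibitors higher in 1 of 4 and lower in 2, and the p53 regulators higher in 1 of 9 and lower in 3.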

How the data were processed

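Single cells were lysed on release from the device and made into Smart-Seq2 libraries. The authors estimated expression with RSEM 1.2.3 for UCSC genes of mm10 (the submitters' notes also name bcl2fastq, TopHat2 and GenomeStudio) and deposited it as TPM, which sum to the same total in each library and keep no depth, so precision at low levels is unknown and a 0 may be a missed transcript. The ribosomal RNA entry Rn45s took 0.984 to 41.8% of the TPM of a CD8+ T-cell and 11.4 to 79.3% of that of an L1210 cell. It thus lowers the TPM of other genes unequally between cells. Doublets and libraries with fewer than 1000 genes above 0 TPM were left out. Lineages were joined from sister and cousin labels that both cells gave, and 3 labels that the named cell did not return were not used.

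Values were transformed to ln(TPM + 1). Genes were tested where over 10% of cells exceeded 1 on that scale (all 10 members in CD8+ T-cells, 9 in L1210 cells, Phlda3 being at 0). limma 3.58.1 (R 4.3.3) fitted lineage as a factor over cells, and Cdkn1a, hours since division and cell type over lineage means, since cells of a lineage are not independent. p-values were adjusted by Benjamini-Hochberg over all genes, with a threshold of 0.05. In the fits over lineage means they cover the spread between lineages, and in the lineage test the spread between cells of a lineage. Neither covers the spread between mice or cultures. Correlations over lineages had 100000 permutations, two-sided. Member names were matched by symbol, positions came from GENCODE and promoters from RefSeq. Before use, the fits were tested on a simulated table in which 200 genes changed. Alternatives changed the pseudocount (0.1 and 10), gene filter, minimum of detected genes (4000), scaling (TPM without Rn45s), covariates, test, lineages and libraries.

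Named are all members, at most the 4 listed genes of lowest p for each list and test, and the 5 genes of highest rho with Cdkn1a in each cell type and by the lower rho of both. The lists are described by counts only. The members and the lists were chosen with earlier results of these data known. Permutations ran in numpy 2.4.6 (Python 3.11.15) and figures in matplotlib 3.10.9.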

Additional observations from a re-analysis of the deposited data

How the results depend on the processing

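Of 96 counts of members recomputed under an alternative, 85 stayed within 1.5 times the reported count. The count with Cdkn1a, 0 in both cell types, became 1 in CD8+ T-cells when only genes in more than 50% of cells were tested and over lineages of at least 2 cells. With hours as a covariate it was 2 there, over the 31 lineages with recorded hours. In L1210 cells it became 1 with at least 4000 detected genes and with detected genes as a covariate. With hours and detected genes together as covariates, an alternative chosen after the data were seen, it was 1 in both, and leaving out each lineage in turn, also chosen afterwards, gave 0 to 1 in both. The count for lineage in L1210 cells, 3 with Cdkn1a, became 1 with the 50% filter, which leaves 5 members to test, Cdkn1a not among them. The count between cell types, 5 with Phlda3, became 8 over cells with the lineage as a random effect. The difference of Trp53 between cell types changed sign with a pseudocount of 0.1 (0.0184), with detected genes as a covariate (0.405) and over lineages of at least 2 cells (0.0228), and the cause was not tested. Of 30 member results past an unadjusted p of 0.05 or called under any alternative, 4 values lost a call and 26 gained one, and 262 kept side and direction. The other 54 results, none called, changed sign in 56 of 513 values. No paired analysis was possible because the cell numbers that CD8+ T-cells and L1210 cells share in the labels pair nothing between them.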

Other observations

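The 6 doublet libraries entered no comparison. Cdkn1a was at 0 TPM in all 4 CD8+ T-cell doublets, which had been released 0.2 to 0.55 h after division, and at 0 and 97.3 TPM in the 2 L1210 doublets. In the 4 CD8+ T-cell doublets Ccng1 was between 29.6 and 114 TPM and Trp53 between 235 and 396 TPM. Phlda3 was above 0 in 1 of the 4, at 35.3 TPM, beside 0 TPM of Cdkn1a.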
